A study of Mus musculus with 17 samples.

Results

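Tibialis anterior muscle of the fiona line was compared with normal muscle over all 22626 probe sets of the array that are not Affymetrix controls, out of 22690 probe sets in all. The comparison rests on 11 of the 17 arrays of the study, 5 from fiona and 6 from normal mice, and it asks what still sets dystrophin-deficient muscle apart from normal muscle when utrophin is supplied in its place. Fiona mice carry the mdx mutation of the dystrophin gene and a transgene that expresses utrophin at a high level. The normal mice carry neither, and the strain of the normal mice is not named in the labels. The 6 arrays of mdx muscle without the transgene serve here as a reference for where a gene lies in untreated disease. All mice were labelled male and were 56 days old, each sample combined the muscles of both legs, and 8 µg of total RNA went into each labelling reaction. All 3 groups were handled alike in these respects, per the labels.

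Dystrophin links the actin cytoskeleton of the muscle fibre to a glycoprotein complex in the membrane and, through it, to the extracellular matrix. Utrophin is its autosomal relative, binds most of the same partners, and in adult fibres is normally concentrated at the neuromuscular and tendon junctions. In the published fiona line a skeletal actin promoter drives full-length utrophin, so the transgene acts in muscle fibres and not in the other cells of the tissue. Muscle without dystrophin undergoes cycles of fibre death, macrophage entry, regeneration and fibrosis.

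All 17 arrays carried the RNA of fast skeletal muscle, with 6 markers such as Acta1 and Ckm between 13.54 and 15.53 on the log2 scale. Array medians ran from 3.596 to 3.815 in fiona and from 3.52 to 3.657 in normal muscle. The median of 15 unspiked bacterial control probe sets, used below as the control level, ran from 2.75 to 2.99 and from 2.64 to 2.87. The upper quartile of fiona arrays 3 and 5 was 6.16, against 6.37 to 6.60 on the normal arrays, so these arrays had a narrower range of values. Although every mouse was labelled male, 4 of the 5 fiona arrays (all but fiona 4) and 1 of the 6 normal arrays (normal 6) had the female pattern of high Xist and low Eif2s3y. The arrays also fell into 2 sets by the largest component of their residuals, with fiona arrays 1 and 4 and normal arrays 3, 4 and 5 in set 1. Differences were therefore also computed with sex pattern as a covariate and within each set.

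The dystrophin transcript was the clearest difference. On one probe set, Dmd read 3.53, 3.36, 3.23, 3.53 and 3.28 on fiona arrays 1 to 5, and 6.33 to 6.88 with a median of 6.62 on the normal arrays. The groups were far apart, and the fiona values overlapped those of mdx muscle (3.27 to 3.52). Dmd fell by 3.25 on the log2 scale (SE 0.0894, 9.52-fold; limma, adjusted p = 1.03e-11; exact permutation test, two-sided p = 0.00216, the smallest that 5 against 6 arrays can give). A second Dmd probe set lay between 4.20 and 6.70 in fiona and between 7.42 and 9.29 in normal muscle, again without overlap, with an adjusted p of 0.101 in limma and the same exact p of 0.00216. The third Dmd probe set lay a little above the control level in both groups, at 3.28 in fiona and 3.10 in normal muscle.

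Utrn showed the transgene, unevenly. One probe set read 4.94, 3.04, 3.78, 7.28 and 2.48 on fiona arrays 1 to 5, while the normal arrays held 2.07 to 2.17, all at or below the control level. Every fiona array lay above every normal array, but fiona 5 was itself at the control level and fiona 4 stood at the top. The difference was at least 1.64 on the log2 scale (limma, adjusted p = 0.198; exact permutation test, two-sided p = 0.00216, or 0.00432 adjusted over 6 Dmd and Utrn probe sets). In the exact test, each value at or below the control level of its array was replaced by that level. Fiona 5 therefore entered it as 2.99 and the normal arrays as 2.64 to 2.87, so fiona 5 stood above them there by its control level alone. A second probe set gave the same order at its top, with 6.39 on fiona 1 and 7.02 on fiona 4 against 2.57 to 2.77 in normal muscle, and fiona 2, at 2.68, lay within the normal range (limma, adjusted p = 0.198; exact p = 0.0108). The brightest Utrn probe set, at 6.57 ± 0.82 (SD, n = 5) in fiona and 6.81 ± 0.26 (SD, n = 6) in normal muscle, did not separate the groups (exact permutation p = 0.623).

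Across the whole array, the Dmd probe set was the 1 call among 22626 probe sets at an adjusted p under 0.05, or 0.00442%, and it was lower in fiona. The smallest adjusted p of any gene other than Dmd was 0.161. Before adjustment 5154 probe sets, or 22.8%, had p under 0.05 in limma. Of these, 4044 were dim probe sets, with a mean of 5 or under, that read higher in fiona, and 180 were dim and lower. The median size of these dim differences was 0.148. Among the brighter probe sets 233 read higher and 697 lower. The direction of the whole count depended on scaling: 4277 were higher and 877 lower as deposited (83.0% higher), but 1284 higher and 3528 lower (26.7% higher) with each array centred on its median, which moved the median difference of all probe sets from 0.04 to -0.05. The median difference was 0.06 for dim and -0.10 for brighter probe sets. The control level was above that of every normal array on fiona arrays 3, 4 and 5, and its part in the small dim differences was not tested. For a probe set with a mean over 5 the median 95% interval reached 0.507 to either side. Every interval below is a 95% interval of the fit without adjustment for the number of genes.

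Larger differences leaned to one side. At least 2-fold lower in fiona were 265 probe sets, and 30 were at least 2-fold higher. With the further demand that no fiona array overlapped a normal one, 62 probe sets (0.274%) remained on the lower side and 1 (0.00442%), the Utrn probe set, on the higher side. Without the demand on size, all fiona arrays lay below all normal arrays for 163 probe sets (0.72%) and above them for 72 (0.318%). These limits were chosen after the values were seen, and apart from Dmd none of these probe sets passed the adjusted test. On the lower side they included regulators of fuel use (Pdk4, Ucp3), a hormone of fat cells (Adipoq), the muscle ubiquitin ligase Fbxo32, the transcription factor Cebpb, the clock receptors Rora and Nr1d2, and the junctional membrane protein Jph1. The median difference of the 62 from normal was -1.33 in fiona and -1.27 in mdx. Both were taken against the same normal arrays, which the 62 were chosen to lie below in fiona, so the mdx value is given as a description. Averaged over the 62, fiona arrays 1 to 5 lay at -1.28, -1.28, -1.62, -1.93 and -1.68 relative to the normal mean, and the mdx arrays between -2.60 and -0.58.

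**Figure D1:**
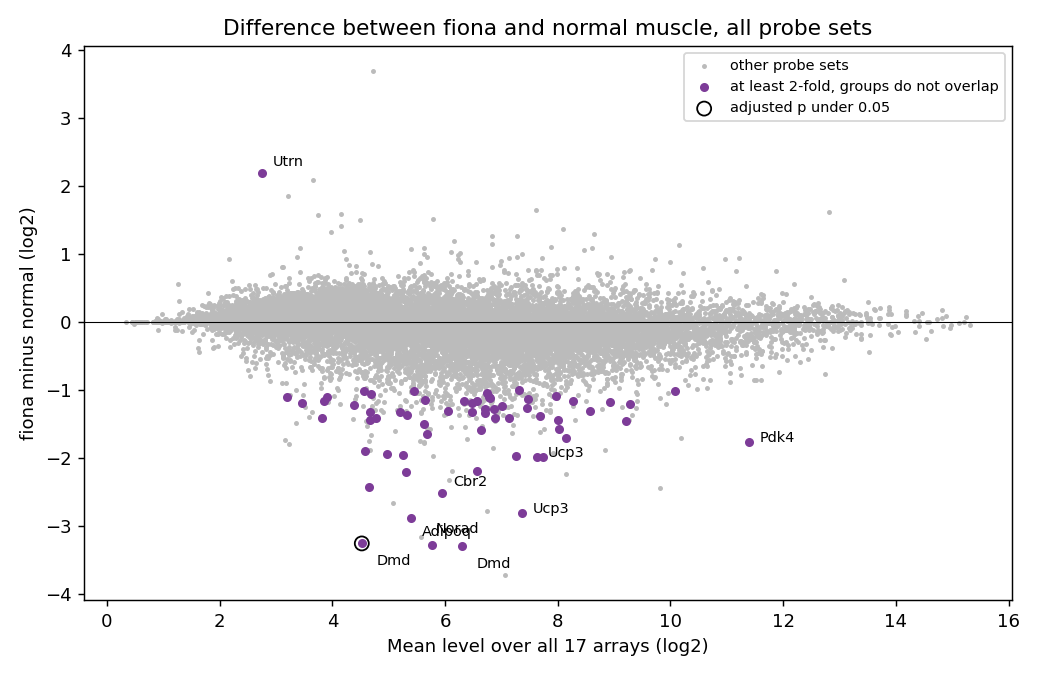
Each point is 1 of 22626 probe sets, with its mean log2 level over 17 arrays on the horizontal axis and the fiona minus normal log2 difference on the vertical axis. Purple points are at least 2-fold with no overlap between groups, 62 below 0 and 1 (Utrn) above, and the ring marks the 1 called probe set, of Dmd at -3.25.

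The 62 probe sets covered 55 named genes, and for 30 of these genes another probe set was brighter and not among the 62. In those 30 genes the dimmer probe set had a median difference of -1.25 and the brightest one -0.36, and the brightest was at least 2-fold lower in 2, Rora and Sox6. The long noncoding RNA Norad gave the widest gap. Its dimmer probe set read 5.92, 3.35, 4.41, 3.46 and 4.07 in fiona against 7.02 to 8.23 in normal muscle, while its brightest read 10.49 to 11.12 against 10.67 to 11.49. The growth hormone receptor gene Ghr did the same, with a difference of -1.94 on its dimmer and -0.28 on its brightest probe set. The mdx array with the largest gap between the 3′ and 5′ Gapdh controls (mdx 1, 2.54) also had the lowest average over the 62. The fiona arrays had Gapdh gaps of -0.28 to 0.06 and the normal arrays -0.43 to -0.12, and the part of RNA quality in these differences was not tested. For the remaining 25 genes, Pdk4, Ucp3, Adipoq and Cebpb among them, the brightest probe set was itself among the 62.

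The programmes that mark diseased mdx muscle were close to normal in fiona. The macrophage list holds receptors and lysosomal proteins of phagocytes, and its 28 measured genes had a median difference from normal of 0.17 in fiona and 2.90 in mdx. No macrophage gene was called between fiona and normal muscle in limma, 5 were higher and 1 lower at an unadjusted p under 0.05, and 5 lay at or below the control level in both groups. Their summed linear signal ran from 1152 to 2480 on the fiona arrays, from 898 to 2297 on the normal arrays and from 11200 to 25553 on the mdx arrays. In whole muscle, fewer cells of a type and less RNA per cell cannot be told apart. Over all 12393 genes the corresponding median was 0.05 in fiona, with 0 genes called by their brightest probe set, 2328 higher and 439 lower at an unadjusted p under 0.05.

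Gpnmb and Tyrobp, a phagocyte glycoprotein and a signalling adaptor, showed how near to normal some macrophage genes lay. Gpnmb read 2.49, 2.45, 2.49, 2.61 and 2.75 in fiona and 2.42 to 2.53 in normal muscle, at or below the control level on every array, against 5.91 to 8.86 in mdx. Tyrobp averaged 3.64 ± 0.34 (SD, n = 5) in fiona, 3.45 ± 0.23 (SD, n = 6) in normal and 8.76 ± 0.68 (SD, n = 6) in mdx muscle, and its interval for fiona minus normal was -0.39 to 0.77.

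Lgals3, Mpeg1 and Ctss averaged higher in fiona than in normal muscle, without passing the adjusted test. Lgals3, which encodes the carbohydrate-binding protein galectin-3, read 6.26, 6.80, 6.01, 7.78 and 5.82 in fiona and 4.51 to 6.18 with a median of 5.47 in normal muscle. The groups overlapped, and the fiona mean was 1.10 higher (interval 0.24 to 1.97; limma, adjusted p = 0.198), while the mdx mean was 6.03 higher than normal. Mpeg1, encoding the pore-forming protein perforin-2, read 3.81, 3.57, 4.83, 5.09 and 5.05 in fiona and 3.39 to 3.58 in normal muscle. Fiona arrays 1 and 2 lay near the normal range and the other 3 more than 1 log2 unit above it. The mean difference was 0.95 (interval 0.27 to 1.63). Ctss, the lysosomal protease cathepsin S, differed by the same 0.95 (interval 0.27 to 1.64), with 7.34 to 8.65 in fiona and 5.91 to 7.65 in normal muscle. All 3 genes were lower in fiona than in mdx muscle, by 4.93, 4.41 and 3.59 on the log2 scale (limma, adjusted p = 8.36e-06, 2.32e-06 and 1.69e-05). That comparison called 42.1% of all probe sets. The macrophage marker Cd163 pointed the other way, at 2.93 in fiona and 3.92 in normal muscle (interval of the difference -1.93 to -0.05).

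The lysosomal and matrix lists had medians near normal in fiona over all arrays. The 16 measured lysosomal genes had a median difference from normal of -0.13 in fiona and 1.25 in mdx, and 0 were called or had an unadjusted p under 0.05 in limma. Hexa, a subunit of the ganglioside-degrading hexosaminidase, averaged 8.56 in fiona, 8.77 in normal and 9.78 in mdx muscle. Lgmn, an asparagine-specific protease, lay at 5.71, 5.49 and 8.56, and its small fiona excess changed sign when sex pattern was a covariate (0.22 to -0.07). The 33 genes of the fibrillar matrix had medians of -0.10 in fiona and 1.30 in mdx, with 0 called in limma and 1 lower at an unadjusted p under 0.05. The fiona median was -0.29 with sex pattern as a covariate, -0.53 within set 1 and 0.13 within set 2. The gene that read lower was Dcn, the collagen-binding proteoglycan decorin, which read 9.87, 11.12, 11.31, 11.36 and 10.76 in fiona and 11.09 to 12.50 in normal muscle (difference -0.85, interval -1.41 to -0.29; -1.37 within set 1 and -0.42 within set 2). Collagen VI chain Col6a2 averaged 9.17 in fiona and 8.53 in normal muscle with an interval of -0.18 to 1.47, and the difference of 0.64 was 0.30 with sex pattern as a covariate. Postn, encoding periostin, had an interval of -1.15 to 1.63, and its difference was 0.24 over all arrays, -0.71 within set 1 and 0.98 within set 2. Among 25 matrix protease and TGF-beta genes, Timp3, an inhibitor of matrix proteases, separated the groups, with 5.91 to 6.95 in fiona, 7.22 to 7.96 in normal and 5.06 to 6.99 in mdx muscle (difference -1.10, interval -1.79 to -0.41).

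**Figure D2:**
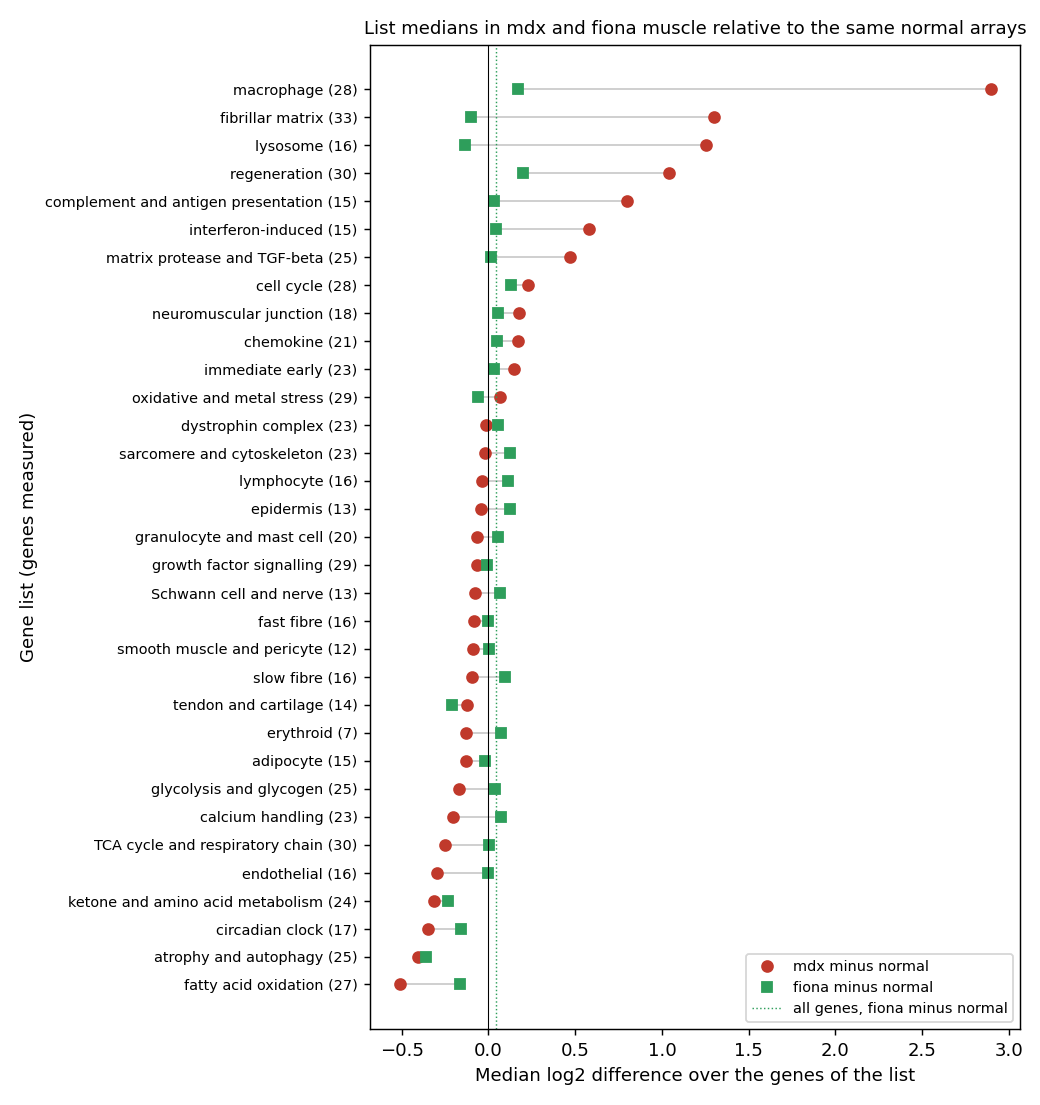
Each line is a gene list with its number of measured genes, and the points give the median log2 difference from the same normal arrays in mdx (red circles) and fiona (green squares). The macrophage list stands at 2.90 in mdx and 0.17 in fiona, while the atrophy and autophagy list stands at -0.41 and -0.36.

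Of the genes of regenerating and stretched fibres, Ankrd1, Igf2, Myh3 and Tnnt2 averaged between normal and mdx in fiona. The 30 measured regeneration genes had a median difference of 0.20 in fiona and 1.04 in mdx, with 0 called and 2 higher at an unadjusted p under 0.05 in limma, Ankrd1 and Igf2. Over all 12393 genes the fiona median was 0.045, and 2328 were higher by the same p. Over the 5100 with a mean over 5 the median was -0.077, and 157 were higher. With sex pattern as a covariate the fiona median of the regeneration list was -0.07. Ankrd1, a stretch-responsive ankyrin-repeat protein of the sarcomere, read 7.46, 7.80, 7.23, 7.20 and 6.54 in fiona and 5.75 to 6.81 in normal muscle. Only fiona 5 fell within the normal range, and the mean was 0.93 higher (interval 0.33 to 1.54; limma, adjusted p = 0.198), while the mdx mean was 3.23 higher than normal. Its second probe set differed by 1.65 (interval 0.65 to 2.65). Igf2, a growth factor of regenerating muscle, was 1.26 higher (interval 0.11 to 2.40) and 0.65 higher with sex pattern as a covariate. Fiona arrays 1 and 4, at 5.99 and 5.53, lay within the normal range of 5.03 to 6.00, and the other 3 read 7.24 to 7.73. Embryonic myosin heavy chain, Myh3, read 6.25, 5.37, 5.41, 5.93 and 6.45 in fiona, 4.52 to 5.67 in normal and 8.19 to 11.45 in mdx muscle, a difference from normal of 0.94 with an interval of -0.06 to 1.93. Tnnt2, the cardiac troponin T of immature fibres, was 4.59 in fiona and 4.24 in normal muscle with an interval of -0.78 to 1.48.

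The fuel-use genes Pdk4 and Ucp3 read below every normal array on every fiona array. Pdk4, the kinase that shuts pyruvate out of oxidation, read 10.64, 10.81, 10.39, 10.70 and 11.05 in fiona and 11.50 to 13.11 with a median of 12.74 in normal muscle. The groups did not overlap, and the difference was -1.76 (interval -2.62 to -0.90; 3.39-fold; limma, adjusted p = 0.198). Mdx muscle averaged 10.85, and fiona minus mdx was -0.13 (adjusted p = 0.82). Ucp3, a mitochondrial carrier induced when fatty acids are burned, read 7.39, 6.78, 6.32, 7.16 and 6.89 in fiona and 7.66 to 10.12 with a median of 8.89 in normal muscle. The difference was -1.98 (interval -2.93 to -1.02; limma, adjusted p = 0.198), and a second, dimmer Ucp3 probe set differed by -2.80. With the array set as a covariate the adjusted p of the brighter probe set was 0.0456. That value can be too small, because the sets come from these same values. Within set 1 the Pdk4 and Ucp3 differences were -2.42 and -2.48, and within set 2 -1.12 and -1.35. Both genes also read lower in mdx muscle than on the same normal arrays (limma, adjusted p = 0.0254 and 0.0181). Those normal arrays enter the fiona differences too, so the mdx values are given as a description.

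The bases before the start of Ucp3 are shown with those of Nr1d2, described below, because a probe set of each gene separated the groups, for Nr1d2 only its dimmer one, and both stretches hold the letters AGGTCA, the core that nuclear receptors such as the PPARs, Rora and Nr1d2 recognise. The stretches are the 250 bases before the annotated start in RefSeq on GRCm38.p6, on the strand of the gene, at chr7:100472741-100472990 (plus strand) for Ucp3 and chr14:18239107-18239356 (minus strand) for Nr1d2. Capitals mark AGGTCA or its reverse complement TGACCT, which occurred 2 times for Ucp3 and 1 time for Nr1d2.
Ucp3: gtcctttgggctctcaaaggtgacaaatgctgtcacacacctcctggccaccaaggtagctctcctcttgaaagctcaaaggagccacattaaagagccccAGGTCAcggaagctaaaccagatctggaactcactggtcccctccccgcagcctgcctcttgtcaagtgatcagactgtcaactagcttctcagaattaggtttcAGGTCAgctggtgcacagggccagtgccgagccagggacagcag
Nr1d2: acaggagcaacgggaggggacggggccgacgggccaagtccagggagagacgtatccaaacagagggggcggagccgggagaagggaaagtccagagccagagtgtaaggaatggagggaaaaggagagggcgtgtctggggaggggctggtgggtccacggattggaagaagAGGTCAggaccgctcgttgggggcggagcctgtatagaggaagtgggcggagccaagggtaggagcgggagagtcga
AGGTCA or its reverse complement lies in 14.0% of the 32851 promoter stretches of this length, and the corresponding stretch of Pdk4 does not hold it. A match describes the letters and not a bound site.

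The wider list of fatty acid oxidation had a median of -0.17 in fiona and -0.51 in mdx over 27 genes, with 0 called in limma and 6 lower at an unadjusted p under 0.05. Besides Pdk4 and Ucp3 these were the fatty acid transporter Cd36, the binding protein Fabp3, the coactivator Ppargc1a and Angptl4, a secreted inhibitor of lipoprotein lipase. By the same unadjusted p, 439 of all 12393 genes were lower, and 377 of the 5100 with a mean over 5. Over those 5100 genes the fiona median was -0.077. Pdk4 and Ucp3 were 2 of 27 members whose fiona arrays all lay below the normal ones, which held for 0.5% of all genes and for 1.08% of the 5100 genes with a mean over 5. Lpl, lipoprotein lipase itself, differed from this pattern. It read 12.23 to 13.00 in fiona, 12.33 to 12.96 in normal and 11.17 to 11.80 in mdx muscle, so fiona overlapped normal and was 1.01 above mdx (limma, adjusted p = 0.00293). The 30 genes of the citrate cycle and respiratory chain had a median of 0.00 in fiona and -0.25 in mdx. Among 24 genes of ketone and amino acid metabolism the median was -0.23, and 5 were lower at an unadjusted p under 0.05 with 0 called in limma. They included Glul, glutamine synthetase (-1.37, interval -2.25 to -0.49), Gpt2, a mitochondrial alanine aminotransferase (-1.02), and Chac1, which breaks down glutathione (-1.85, interval -2.96 to -0.75).

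The atrophy and autophagy list holds ubiquitin ligases, autophagy genes and the stress-responsive factors that accompany muscle wasting. Its 25 measured genes had a median of -0.36, against 0.05 over all genes and -0.08 over genes with a mean over 5, and the median in mdx was -0.41. With sex pattern as a covariate the fiona median was -0.24, and within sets 1 and 2 it was -0.51 and -0.25. In the same order, the medians were -0.129, 0.006 and -0.137 over genes with a mean over 5, and 0.043, 0.02 and 0.06 over all genes. In limma 0 were called and 7 were lower at an unadjusted p under 0.05, against 439 of all 12393 genes and 377 of the 5100 with a mean over 5. In 3 (Cebpb, Fbxo32 and Pdk4) all fiona arrays lay below all normal arrays. That held for 0.5% of all genes and for 1.08% of those with a mean over 5. Pdk4 is also counted in the fatty acid oxidation list above. Cebpb, a transcription factor of stress and glucocorticoid responses, read 8.87, 8.86, 8.75, 7.27 and 8.46 in fiona and 9.61 to 10.32 in normal muscle. It differed by -1.45 (interval -2.04 to -0.86; adjusted p = 0.198) and lay 0.74 below mdx (adjusted p = 0.0417), with fiona 4 lowest on both Cebpb probe sets. Fbxo32, the ubiquitin ligase atrogin-1, read 7.47, 7.43, 6.95, 6.52 and 6.96 on its dimmer probe set in fiona and 8.40 to 9.81 in normal muscle (difference -1.97, interval -3.66 to -0.28; -1.26 with sex pattern as a covariate). On its brightest probe set the difference was -1.30 and, with sex pattern as a covariate, -0.08. The glucocorticoid-responsive genes Klf15, Tsc22d3 and Fkbp5 read 1.04, 0.85 and 0.79 lower on average, with intervals of -1.82 to -0.25, -1.56 to -0.14 and -1.55 to -0.02. Klf15 was 7.96, 6.96, 7.09, 6.73 and 6.23 in fiona and 6.92 to 8.82 in normal muscle, an overlap.

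Clock receptors were lower in fiona on average. The clock list of 17 genes had a median of -0.16 in fiona and -0.35 in mdx. The fiona median was 0.045 over all genes and -0.077 over those with a mean over 5. In limma 0 clock genes were called, and 4 were lower and 0 higher at an unadjusted p under 0.05. By that p, 439 of all 12393 genes were lower, and 377 of the 5100 with a mean over 5. Rora, a nuclear receptor that activates clock genes, read 7.46, 6.87, 6.38, 6.09 and 6.31 in fiona and 7.43 to 8.02 in normal muscle. Fiona 1 alone lay within the normal range. The difference was -1.10 (interval -1.54 to -0.66; limma, adjusted p = 0.198). With 1 array left out, the adjusted p of Rora ran from 0.00572, without fiona 1 itself, to 0.448. Nr1d2, the repressor that competes for the same DNA sites, read 3.68, 3.22, 3.33, 3.30 and 3.36 in fiona, 3.87 to 5.75 in normal and 3.08 to 3.30 in mdx muscle on its dimmer probe set. Its brightest probe set gave a smaller difference of -0.56 (interval -0.94 to -0.18), with overlap. Nfil3, a repressor of clock-controlled genes, was 4.50 in fiona and 5.79 in normal muscle (interval of the difference -2.22 to -0.37).

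In the adipocyte list, Adipoq, Plin4 and Scd1 read lower in fiona on average, while the list median lay near normal. Adipoq, the fat-cell hormone adiponectin, read 2.18, 5.40, 4.97, 4.35 and 3.19 in fiona and 6.01 to 8.52 in normal muscle without overlap, a difference of -2.88 (interval -4.27 to -1.48; limma, adjusted p = 0.198). Fiona 1 was at the control level. In mdx muscle Adipoq ranged from 3.49 to 6.44. Plin4, a coat protein of lipid droplets, was 8.84 to 9.18 in fiona and 9.40 to 9.81 in normal muscle, again without overlap, with a difference of -0.62 (interval -0.94 to -0.30). Scd1, which makes monounsaturated fatty acids, differed by -1.44 (interval -2.21 to -0.67) with overlap at normal 6, the normal array with the female pattern, which read 7.89. The adipocyte list of 15 genes, these 3 included, had a median of -0.02 in fiona, with 0 called in limma. At an unadjusted p under 0.05 these 3 were lower and 2 were higher. The 2 were Lep and Acaca, higher by 0.10 and 0.07 with means below the control level. Over all 12393 genes, 2328 were higher and 439 lower at that p. Of the adipocyte list, 4 genes lay at or below the control level in both groups. Its summed linear signal was 23647 to 30728 in fiona and 27810 to 34679 in normal muscle, which overlap, and the part of attached fat in the Adipoq difference was not tested.

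**Figure D3:**
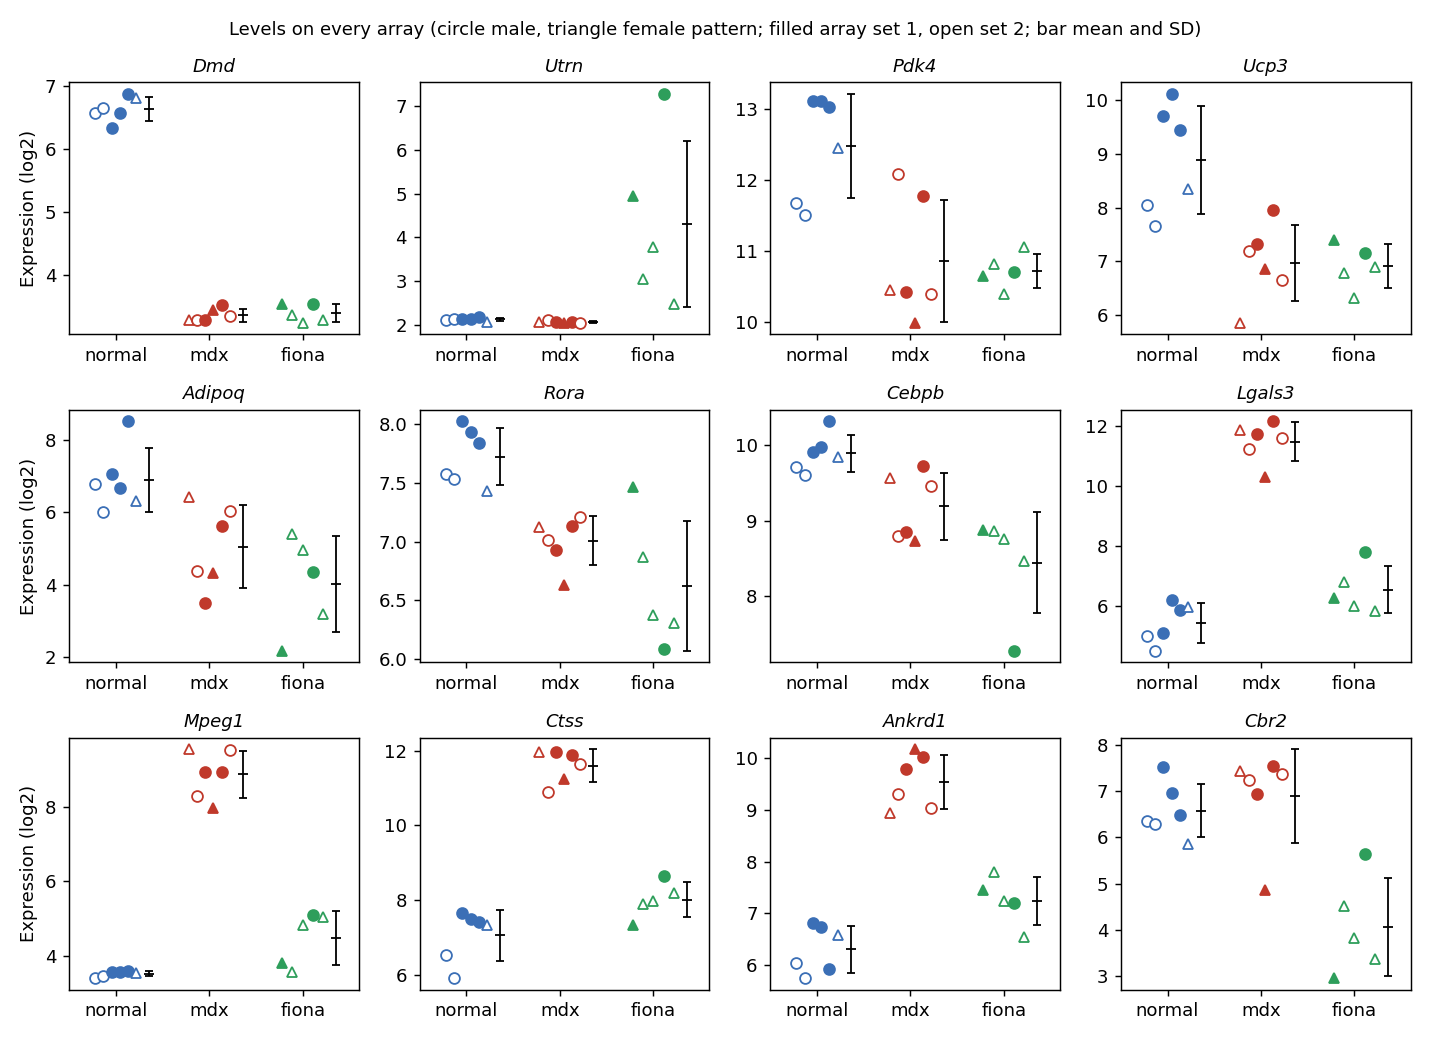
Each panel gives the log2 level of a gene on every array of normal (blue), mdx (red) and fiona (green) muscle, with circles for the male and triangles for the female pattern, filled symbols for array set 1, and a bar for the mean and SD. Pdk4, Ucp3, Adipoq and Cebpb lie below every normal array in fiona, whereas Lgals3, Mpeg1, Ctss and Ankrd1 lie near normal and far from mdx.

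Some genes read differently in fiona from both normal and mdx muscle. Cbr2, a lung-type carbonyl reductase, read 2.96, 4.52, 3.82, 5.65 and 3.37 in fiona, 5.86 to 7.52 in normal and 4.86 to 7.53 in mdx muscle. It lay 2.51 below normal without overlap (interval -3.63 to -1.39; limma, adjusted p = 0.198) and fell by 2.82 relative to mdx (adjusted p = 0.00629). With sex pattern as a covariate the difference from normal was -1.70. Angptl4 averaged 3.27 in fiona, 5.01 in normal and 5.46 in mdx muscle, with fiona arrays 3 and 5 at the control level. Cebpd, a transcription factor related to Cebpb, averaged 4.97, 6.50 and 6.64, and Serping1, the inhibitor of complement C1, 8.44, 9.21 and 9.59. Angptl4, Cebpd and Serping1 were lower in fiona than in mdx muscle (limma, adjusted p = 0.012, 0.0169 and 0.012), a comparison that called 42.1% of all probe sets. Against normal muscle each of them had an adjusted p of 0.198 in limma. The iron store protein ferritin heavy chain, Fth1, read 13.14 to 13.40 in fiona and 13.57 to 13.86 in normal muscle, a non-overlapping difference of -0.44 (interval -0.60 to -0.28; adjusted p = 0.161). On the higher side, Clec16a, involved in the removal of mitochondria, read 5.56, 6.78, 6.78, 6.41 and 6.48 in fiona and 5.17 to 5.82 in normal muscle (difference 1.00, interval 0.62 to 1.38) and rose by 1.21 relative to mdx (adjusted p = 0.00127), with fiona 1 within the normal range.

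Contractile and membrane genes were mostly near normal. The 16 fast fibre genes had a median of 0.00 and a range of -0.17 to 0.18, with 0 called and 1 higher at an unadjusted p under 0.05 in limma. That gene was the fast myosin Myh1, at 14.96 in fiona and 14.78 in normal muscle. The slow fibre list was uneven. Fhl1, a LIM-domain protein of the sarcomere, read 13.12 to 13.95 in fiona and 12.70 to 13.08 in normal muscle without overlap (difference 0.61, interval 0.27 to 0.96). The slow myosin Myh7 was at or below the control level on all fiona arrays and ranged from 2.30 to 6.94 on the normal arrays, with normal 3 highest, so fiona averaged at least 1.53 lower, with the groups overlapping. The slow list median was 0.10, but -0.62 with sex pattern as a covariate, -0.53 within set 1 and 0.32 within set 2. Jph1, which anchors the sarcoplasmic reticulum to the transverse tubule, read 7.96, 7.65, 7.10, 7.54 and 7.06 in fiona and 8.54 to 9.27 in normal muscle (difference -1.57, interval -2.65 to -0.49, and -0.95 with sex pattern as a covariate). The 23 genes of the dystrophin complex, Dmd and Utrn included, had a median of 0.06 and 1 gene, Dmd, with all fiona arrays below all normal arrays.

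Probe sets of G0s2, Aplnr and Rgs2, chosen after their values were seen, averaged at least 2-fold higher in fiona than in normal muscle. G0s2, an inhibitor of the lipase that empties fat stores, averaged 8.66 ± 0.76 (SD, n = 5) in fiona, 7.30 ± 0.87 (SD, n = 6) in normal and 8.39 ± 0.92 (SD, n = 6) in mdx muscle. Aplnr, the apelin receptor of endothelial cells, averaged 9.12, 7.82 and 9.05, and Rgs2, a brake on G protein signalling, on a dimmer probe set 4.40, 2.99 and 5.11. On that probe set 1 fiona and 2 normal arrays lay at or below the control level, and the brightest Rgs2 probe set is not described here. None of the 3 passed the adjusted test against normal (limma, adjusted p = 0.198 each). With sex pattern as a covariate the G0s2 difference of 1.36 was 0.87 and the Aplnr difference of 1.30 was 0.77.

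How many probe sets passed the test depended on single arrays. The fiona 2 array had the lowest control level of its group, at 2.75, which lies within the normal range of 2.64 to 2.87. Its gap between the 3′ and middle actin controls was 4.35, against 2.70 to 2.81 on the other fiona arrays. That gap was also 4.15, 4.05 and 3.76 on mdx arrays 1, 2 and 6. The gap between the 3′ and 5′ actin controls was 0.07 on fiona 2, against 0.16 to 0.85 on the other fiona arrays. The part of RNA quality in the counts below was not tested. With fiona 2 left out, 2147 of 22626 probe sets were called in limma, 1905 higher and 242 lower. Of these, 1845 were dim and higher, 208 were brighter and lower, and 97 were at least 2-fold. Leaving out any other fiona or normal array gave 1 to 5 calls. The 5 calls without fiona 1 were both Dmd probe sets, Rora, Asb4 and Clec16a. Asb15 joined Dmd without normal 5, and Fbxo32 (the dimmer probe set) and Fth1 joined it without mdx 4. Without fiona 2, Ucp3, Pdk4, Adipoq, Rora and Cebpb passed, with adjusted p of 0.0419, 0.0419, 0.0406, 0.0398 and 0.0398, and so did Mpeg1 at 0.0421. They were among the 2147 calls of that setting, so passing there does not single them out. In the same order, the differences of these genes were then -1.94, -1.78, -3.22, -1.16, -1.56 and 1.18. With all arrays they were -1.98, -1.76, -2.88, -1.10, -1.45 and 0.95. The array set comes from these same values, so p-values with it as a covariate can be too small. With it as a covariate, 10 probe sets were called. Those higher were Clec16a, Lamtor1 and Pi4k2b, and those lower were both Dmd probe sets, Ucp3, Glul, Ccdc50, Asb5 and Rragd, a small GTPase of nutrient signalling. With the 7 female-pattern arrays left out, fiona 4 stood alone for its group and was assumed to vary like the other arrays, and 1013 probe sets were called. With sex pattern kept as a covariate, the Dmd probe set remained the 1 call.

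The size of several differences varied between the array sets. Within set 1, which holds fiona arrays 1 and 4, the Utrn probe set at the control level in normal muscle that separated the groups was 3.97 higher than normal, and within set 2 it was 1.00 higher. Differences within sets 1 and 2 were -4.16 and -1.84 for Adipoq, -2.19 and -0.75 for Scd1, -2.24 and -1.14 for Angptl4, and -1.23 and -0.40 for Serping1. For the dimmer probe sets of Nr1d2, Cebpb and Rora they were -2.01 and -0.77, -2.17 and -0.82, and -2.38 and -0.48. Klf15 gave -1.31 and -0.64, Nfil3 -1.76 and -0.79, and Myh7 -2.95 and -0.67. The macrophage protease Ctss and the growth factor Igf2 went the other way, with 0.48 and 1.43 for Ctss and 0.45 and 1.72 for Igf2. Lpl changed sign between the sets (0.15 and -0.43), as did the brightest Utrn probe set (0.20 and -0.48). No difference between the sets was tested.

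**Figure D4:**
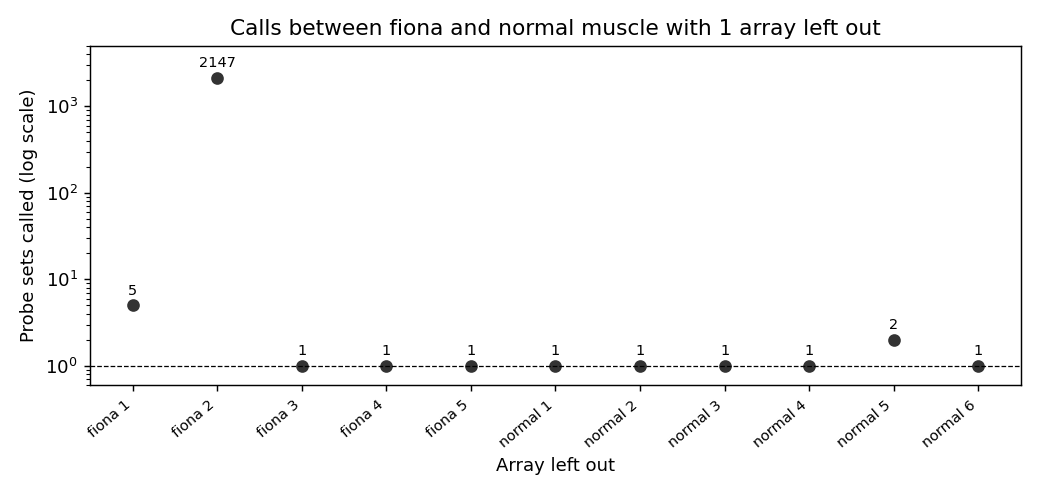
The number of probe sets called between fiona and normal muscle (log axis) is shown with each of the 5 fiona and 6 normal arrays left out in turn, and the dashed line marks the 1 call with all arrays. The count stays between 1 and 5 except without fiona 2, where it is 2147.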

How the data were processed

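Expression was measured on 17 single-channel arrays, and the authors deposited 1 log2 value for each probe set and array. RMA and GCRMA are both named in the submitters' processing notes, without saying by which method the deposited log2 values were computed. The labels call the arrays biological replicates; their number limits the precision. No pair of arrays was identical (correlations 0.939 to 0.996).

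From the deposited values, 64 control probe sets were set aside, and 22626 were tested without a filter with limma 3.58.1 in R 4.3.3 (lmFit, eBayes, 1 mean per group over all 17 arrays). P-values were adjusted by Benjamini-Hochberg over all probe sets, with calls at adjusted p under 0.05. The procedure was run on simulated data with independent noise. These had no array sets, sex pattern or shift of dim probe sets, so the run does not speak to those. Gene symbols came from the platform annotation (20380 probe sets with 1 symbol, 691 with several, 1555 with none). A gene in a list is represented by its brightest probe set, and values are from that probe set unless another is stated. The 35 lists carry no test. Array sets are the sign of the first residual component of these same values, so p-values with them as a covariate can be too small. Sex pattern comes from Xist and Eif2s3y. Replicate numbers were checked for pairing: same-numbered fiona and normal arrays correlated between -0.585 and 0.55 in their residuals, so no block was used. Where a whole group lay at or below the control level, the difference is written "at least" and was computed with each value at or below that level replaced by it. The exact permutation tests used the same replacement on every array, and limma used the values as deposited.

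Members and lists were chosen with earlier results of these data known. The rule for named genes took Dmd, Utrn, Xist and the Y chromosome genes, the called genes with the largest differences, from each list its called members or, without calls, the member with the smallest p, and up to 4 further members of the macrophage, lysosome, fibrillar matrix, regeneration and fatty acid oxidation lists by their mdx difference. Of the genes printed it gave Dmd, Utrn, Xist, Eif2s3y, Lgals3, Mpeg1, Tyrobp, Gpnmb, Lgmn, Hexa, Postn, Col6a2, Dcn, Timp3, Myh3, Tnnt2, Ankrd1, Ucp3, Pdk4, Lpl, Chac1, Adipoq, Rora, Cebpb, Jph1, Fhl1, Myh1 and Serping1, and others it gave were left out for length. All other genes, and the second probe sets, were chosen after their values were seen. Figures used Python 3.11.15 and matplotlib 3.10.9.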

Additional observations from a re-analysis of the deposited data

Results flagged for a closer look

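In a group of 5 or 6 arrays, a value far from the others can arise by chance, and this rule marks about 1 group in 20. Of 154 groups examined, these values stood apart. Xist read 2.01 on fiona 4 against 7.73 to 8.29 on the other fiona arrays, and 7.78 on normal 6 against 1.99 to 2.47 on the other normal arrays. Eif2s3y, on the Y chromosome, read 9.21 on fiona 4 against 3.62 to 4.38. Fiona 4 was also lowest for Cebpb, at 7.27 against 8.46 to 8.87, and for a second Rora probe set, at 3.98 against 6.67 to 6.92. Col6a2 read 7.63 on fiona 1 against 9.40 to 9.67. Myh1 read 14.81 on fiona 2 against 14.98 to 15.03. Among the normal arrays, Postn read 5.78 on normal 2 against 8.02 to 9.08. Asb15, a muscle ubiquitin ligase adaptor, read 2.95 on normal 5 against 3.94 to 4.40. Its adjusted p in limma was 0.161 with all arrays and ran from 1.85e-05 to 0.448 with 1 array left out. The lowest came without normal 5, the array that this rule had marked. On 4 fiona arrays Asb15 lay at or below the control level. Rgs2 read 3.99 on normal 6 against 2.51 to 3.00.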

How the results depend on the processing

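Of 31 alternatives, each that tested the Dmd probe set called it, in the same direction. Against 1 call, also at least 2-fold, the counts (in parentheses, those at least 2-fold) were 0 (0) with 1 probe set per gene, which leaves out that Dmd probe set, 2 (2) with a filter on dim probe sets, with the trend and robust prior or with sex pattern and array set as covariates, 10 (5) with the array set alone, 128 (50) with array weights and 1013 (276) without female-pattern arrays. With the replicate block 2 probe sets were called, Dmd and Tgoln1, and the block kept the Dmd call. Leaving out 1 array gave 1 to 2147 calls and 1 to 97 at least 2-fold; without mdx 4 there were 3 (2). These and the following were chosen after seeing the data. Array set 1 alone gave 60 (26) and set 2 alone 15 (10). Of the probe sets at least 2-fold lower and higher without overlap, 62 and 1, quantile normalization left 41 and 6, of which 40 of the lower were shared, the dim filter 62 and 0, the male-pattern arrays 677 and 292, set 1 363 and 81, set 2 261 and 26, and 1 array left out 60 to 123 and 1 to 8. Median centring moved the probe sets at unadjusted p under 0.05 from 83.0% to 26.7% higher. Over 77 named probe sets, 23 of 2373 values changed sign, none of them called. With sex pattern as a covariate Eif2s3y was 0.40, Lgmn -0.067 and Postn -0.46; with the array set too, 0.29, -0.026 and -0.54, and Tnnt2 -0.081. Without female-pattern arrays the brightest Utrn probe set was 0.49, Xist -0.17, Eif2s3y 0.50, Lgmn -0.32 and the brightest Ghr probe set 0.14. With array weights Utrn was 0.042, Lgmn -0.20, Postn -0.59, Lpl 0.26 and the brightest Norad probe set 0.013. In set 1 Utrn was 0.20, Lgmn -0.38, Postn -0.71 and Lpl 0.15. With 1 array left out Utrn ran from -0.44 to 0.097 (without fiona 5), and Postn from -0.25 (without normal 2) to 0.53. The causes were not tested.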
